A study of Mus musculus with 8 samples.

Results

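The epidermal growth factor (EGF) receptor gene Egfr, genes for ligands that the receptor binds, and genes for proteins that restrain its signal were followed in 3134 cells, a mouse mammary tumor line derived from C127. The set was given by name: Egfr, the ligand genes Hbegf, Areg and Ereg, and the inhibitor genes Errfi1, Spry1, Spry2, Spry4, Spred1 and Spred2. Of these 10 genes, 9 had a probe set that carried their symbol alone, among 19938 genes tested, and Areg was not analysed here. Where a gene had more than 1 probe set, the one whose mean over all arrays was highest stood for it, which concerned only Spred2. All cells, controls included, carried stably integrated A-fos, a dominant negative form of Fos that blocks DNA binding by AP-1, together with the tetracycline regulator tTA, which drives A-fos in a Tet-Off manner. Whether the line is 1 clone is not given in the sources used here.

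The 4 groups had 2 arrays each. They crossed 0 h (untreated) and 4 h of 100 nM dexamethasone, a synthetic glucocorticoid, with the absence or presence of tetracycline named in the sample titles, and the study asked how AP-1 bears on the hormone response. The treatment protocols name the opposite tetracycline state (1 ug per ml) for all 8 samples. Each arm therefore bears the name its titles give, no-titled or plus-titled, and no sign below states which arm expressed A-fos. Tetracycline itself and the A-fos state cannot be told apart in this design. Serum stripped with charcoal was used for the 48 h that preceded hormone, in all groups. Nothing in the labels says that the arrays of a group came from separate cultures, so the p-values reflect the spread of these samples alone, and that spread may be technical.

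EGF family ligands are made as membrane proteins, are shed from the cell surface by ADAM proteases and bind ErbB receptor tyrosine kinases, which signal through Ras, Raf and the ERK kinases. The signal raises transcription of its own brakes. Errfi1 encodes MIG6, which binds the kinase domain of the receptor and blocks it, while Sprouty and Spred proteins act further down, between the receptor and Raf. In mammary tissue amphiregulin, the product of Areg, carries the estrogen signal for ductal growth, and Errfi1 is a known glucocorticoid-induced gene.

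Signals are log2 values from robust multi-array averaging (RMA), which makes the distributions of the arrays alike. They cannot be compared between genes, and no call of presence or absence was used. Replicates correlated at 0.993 to 0.996 across genes. The untreated plus-titled pair stood apart from the other pairs, with 24 genes more than 2-fold apart against 4 to 11 elsewhere, and its replicate 1 had the lowest array median (5.36 against 5.44 to 5.47). The hormone checks Fkbp5 and Tsc22d3, classical glucocorticoid targets, rose by 3.32 and 2.85 in the plus-titled arm, and the no-titled rises were 3.05 and 2.64. Fos, the gene nearest to the transgene, had no-titled means of 5.03 at 0 h and 5.36 at 4 h, and plus-titled means of 5.35 and 6.07, and whether its probe set reads A-fos is not known here. Markers of luminal epithelium (6 of 7 measured) averaged 4.83 to 5.07 over the arrays, from Epcam at 4.39 to Krt8 at 5.86. Fibroblast and mesenchymal markers (6 of 6 measured) averaged 9.35 to 9.78, from Thy1 at 5.82 to Vim at 12.82. Of these 6, Col1a2 was lower in the plus-titled arm by -0.70 at 0 h and -0.65 at 4 h, called in all 8 fits without 1 array. Pdgfrb was higher there by 0.52 at 0 h (call lost in 4 of the 8 fits) and was lowered by dexamethasone in the plus-titled arm (-0.75, adjusted p = 0.0191, lost in 3), beside -0.52 in the other (adjusted p = 0.0992). The list's mean was 9.77 and 9.57 in the no-titled arm, and 9.57 and 9.42 in the plus-titled one, at 0 h and 4 h. Leukocyte markers (4 of 5 measured) averaged 4.56 to 4.79, and endothelial ones (4 of 4 measured) 5.14 to 5.35, with Cdh5 at 7.15. Since signals cannot be compared between genes, the levels of these lists do not establish what the cells are. Of 6 basal markers, Krt14 was lower in the plus-titled arm by -1.39 at 0 h and -1.41 at 4 h and Acta2 was higher by 1.66 and 1.45 (calls lost in 3 and 5 of the 8 fits without 1 array). The list's mean was 5.38 and 5.34 in the no-titled arm and 5.33 and 5.27 in the plus-titled arm, at 0 h and 4 h. The part of these shifts in the results below was not tested.

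**Figure D1:**
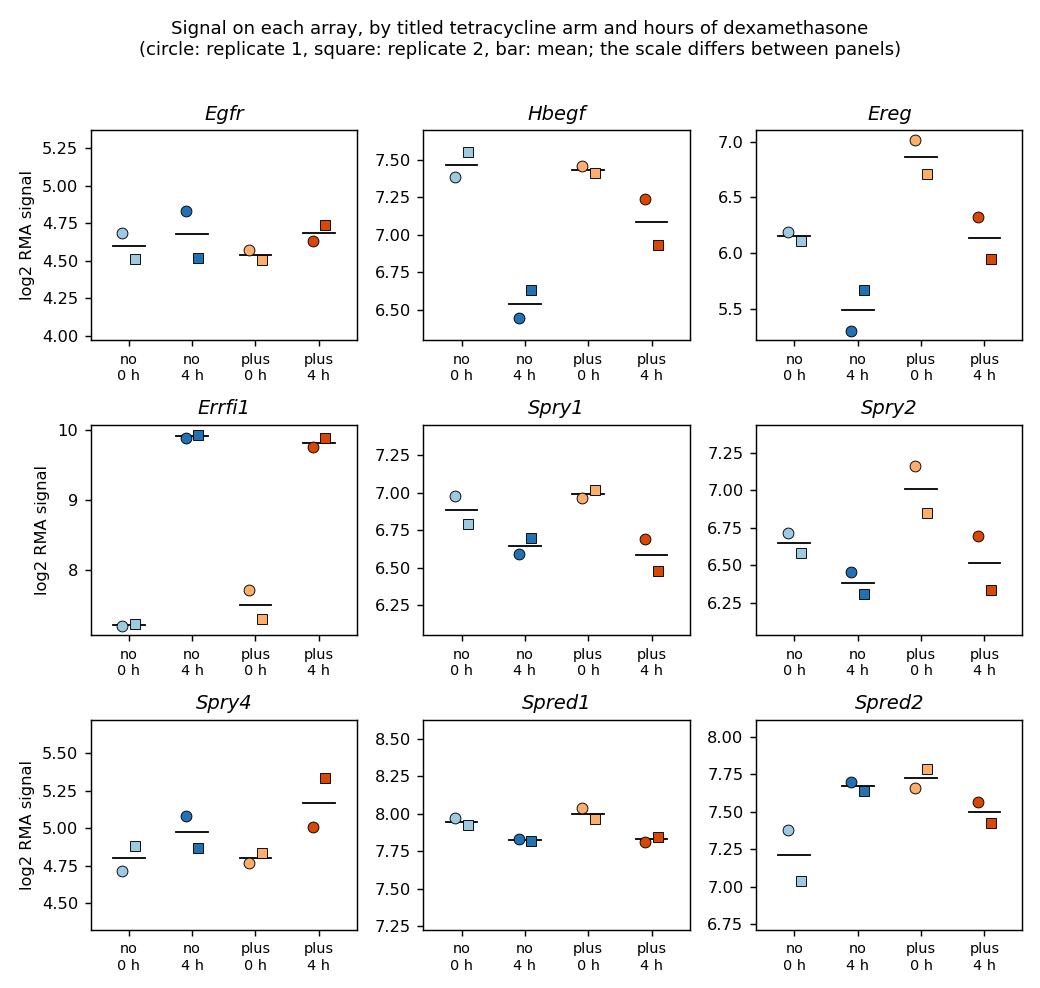
Signal (log2) of the 9 measured genes on each of the 8 arrays, by arm named in the titles (no or plus tetracycline) and hours of dexamethasone; circles are replicate 1, squares replicate 2, and bars group means. Errfi1 moved from between 7.21 and 7.71 at 0 h to between 9.76 and 9.94 at 4 h, while Egfr stayed between 4.50 and 4.83 on all arrays.

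The first question was how the set responded to 4 h of dexamethasone. In both arms a single feedback inhibitor, Errfi1, rose strongly. In the no-titled arm the ligand gene Hbegf fell, and in the plus-titled arm its difference did not pass. The other measured ligand gene, Ereg, lay lower at 4 h in both arms (-0.66 and -0.73), and neither difference passed. The receptor gene and the Sprouty and Spred genes did not pass in either arm. Differences were tested with limma across all 19938 genes, and a gene was called at a Benjamini-Hochberg adjusted p under 0.05. In the no-titled arm 1 member rose, 1 fell and 7 did not pass, where 1.03% of all genes rose and 0.401% fell (1.43% called in all). In the plus-titled arm 1 rose, 0 fell and 8 did not pass, where 0.823% of all genes rose and 0.281% fell (1.10% in all). The members' median difference was -0.12 (no-titled) and -0.23 (plus-titled), against 0.0061 and -0.0071 over all genes. The 2 treated and the 2 untreated values did not overlap for 7 of 9 members in the no-titled arm, where this held for 40.5% of all genes, and for 9 of 9 in the plus-titled arm, where it held for 36.1%.

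Egfr itself showed little difference. In the no-titled arm its signal was 4.68 and 4.51 at 0 h and 4.83 and 4.52 at 4 h. In the plus-titled arm it was 4.57 and 4.50 at 0 h and 4.63 and 4.74 at 4 h. The groups overlapped in the first arm and were apart by less than 0.1 in the second. The responses were 0.08 (95% interval -0.21 to 0.36) and 0.15 (-0.14 to 0.43), which in each arm excludes a 2-fold change of the signal (intervals here are limma's and are not adjusted for the number of genes). The probe set was dim, with a mean of 4.62 over the arrays, and RMA compresses folds of dim genes. A 2-fold change of the Egfr transcript is therefore not excluded.

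Hbegf encodes heparin-binding EGF-like growth factor, a ligand of EGFR and ErbB4. On the no-titled arrays its signal was 7.39 and 7.55 at 0 h and 6.44 and 6.63 at 4 h. On the plus-titled arrays it was 7.46 and 7.41 at 0 h and 7.24 and 6.93 at 4 h. The untreated values of the arms overlapped, and the treated no-titled values were the lowest of the 8. Hbegf fell by 0.93 ± 0.13 (log2, SE; 1.90-fold lower; adjusted p = 0.00439) in the no-titled arm, rank 14 from the bottom among all genes. That call was lost without replicate 2 of the untreated no-titled group (-0.85, adjusted p = 0.0613) and without replicate 1 of the treated one (-0.83, adjusted p = 0.0602). In the plus-titled arm the difference was -0.35 ± 0.13 (adjusted p = 0.376; 95% interval -0.64 to -0.06).

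Ereg encodes epiregulin, another ligand of EGFR and ErbB4. In the no-titled arm the signal was 6.19 and 6.11 at 0 h and 5.30 and 5.67 at 4 h. In the plus-titled arm it was 7.01 and 6.71 at 0 h and 6.32 and 5.95 at 4 h. The treated values lay below the untreated ones in each arm, and the treated plus-titled values spanned the untreated no-titled ones. The responses were -0.66 ± 0.17 (adjusted p = 0.104) and -0.73 ± 0.17 (adjusted p = 0.0837), and neither passed. With trend and robust variance both passed (adjusted p = 0.0454 and 0.0312), and without the dimmest 25% of genes the second did (adjusted p = 0.0479).

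Errfi1, the gene of MIG6, had the largest difference of the set. In the no-titled arm its signal was 7.21 and 7.23 at 0 h and 9.89 and 9.94 at 4 h. In the plus-titled arm it was 7.71 and 7.30 at 0 h and 9.76 and 9.89 at 4 h. The treated values of the arms overlapped, and all 4 lay more than 2 log2 units above all untreated ones. Errfi1 rose by 2.69 ± 0.14 (6.47-fold, adjusted p = 3.22e-06) without tetracycline in the title and by 2.32 ± 0.14 (4.99-fold, adjusted p = 1.31e-05) with it. These were ranks 6 and 8 from the top among all genes, beside Fkbp5 at ranks 5 and 4. Over the 8 fits without 1 array the responses were 2.67 to 2.72 and 2.11 to 2.53, with adjusted p at most 7.78e-05 and 0.00041.

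Errfi1 has 2 annotated starts in RefSeq (GRCm38.p6, plus strand of chromosome 4). The 250 bases before each are shown because Errfi1 is the member with the clear hormone response, and the capitals mark the match to a searched motif. The first window is chr4:150853546-150853795 and the second is chr4:150854820-150855069.
Errfi1, first start: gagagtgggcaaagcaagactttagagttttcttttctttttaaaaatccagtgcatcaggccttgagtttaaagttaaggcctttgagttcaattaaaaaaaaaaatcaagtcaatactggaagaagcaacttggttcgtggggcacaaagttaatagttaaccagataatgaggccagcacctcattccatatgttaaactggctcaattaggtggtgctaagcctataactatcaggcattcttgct
Errfi1, second start: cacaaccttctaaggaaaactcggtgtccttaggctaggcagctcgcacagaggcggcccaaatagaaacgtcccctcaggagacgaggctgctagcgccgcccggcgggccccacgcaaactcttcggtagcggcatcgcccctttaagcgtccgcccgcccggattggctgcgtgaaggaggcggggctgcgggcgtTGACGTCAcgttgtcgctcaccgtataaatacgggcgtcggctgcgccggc
Both strands were searched for the AP-1 site TGANTCA, the cyclic AMP response element TGACGTCA, the palindromic glucocorticoid receptor site and its partial site TGTTCT, which can lie within the palindromic one. The second window holds TGACGTCA, beginning 51 bases before the start, as 1.55% of 32851 RefSeq windows of the same length do. It holds no other of these motifs, and the first window holds none. Of the 10 genes, 7 had 8 windows in the table, and the only other match was TGACGTCA 61 bases before the start of Areg. The shares of all windows with the other motifs were 6.75% for TGANTCA, 0.387% for the palindromic receptor site and 16.1% for TGTTCT. A match is a run of letters in the window and not a measured site. As so few windows hold the palindromic receptor site, its absence is the usual case. Sequence outside the 250 bases was not searched, so the absence says nothing about receptor sites elsewhere.

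The Sprouty genes encode inhibitors that receptor tyrosine kinase signals induce. Spry1 was at 6.98 and 6.79 at 0 h and 6.59 and 6.70 at 4 h in the no-titled arm, and at 6.97 and 7.02 at 0 h and 6.70 and 6.48 at 4 h in the plus-titled arm. Spry2 was at 6.72 and 6.58, then 6.45 and 6.31, in the no-titled arm, and at 7.16 and 6.85, then 6.69 and 6.33, in the plus-titled arm. For both genes the treated values lay below the untreated ones in each arm. The responses of Spry1 were -0.24 (adjusted p = 0.616) and -0.41 (adjusted p = 0.215), and those of Spry2 were -0.27 (adjusted p = 0.683) and -0.49 (adjusted p = 0.232). Spry4 had the opposite sign, with 4.71 and 4.88 at 0 h and 5.08 and 4.86 at 4 h in the no-titled arm and with 4.77 and 4.83 at 0 h and 5.01 and 5.33 at 4 h in the plus-titled arm. Its groups overlapped in the first arm only, and its responses were 0.18 (adjusted p = 0.842) and 0.37 (adjusted p = 0.356). The intervals of all 3 Sprouty genes excluded a 2-fold change of the signal in both arms. The Spry4 probe set was dim, with a mean of 4.94, so for Spry4 this does not extend to the transcript.

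The Spred genes encode Sprouty-related proteins that bind neurofibromin and hold Ras in check. Spred1 was at 7.97 and 7.92 at 0 h and 7.83 and 7.81 at 4 h in the no-titled arm, and at 8.04 and 7.96 at 0 h and 7.81 and 7.84 at 4 h in the plus-titled arm. Its responses were -0.12 (95% interval -0.35 to 0.10) and -0.17 (-0.40 to 0.06). Spred2 was at 7.38 and 7.04 at 0 h and 7.70 and 7.64 at 4 h in the no-titled arm, and at 7.66 and 7.79 at 0 h and 7.57 and 7.42 at 4 h in the plus-titled arm. Its treated values were thus above the untreated no-titled ones and below the untreated plus-titled ones, with responses of 0.46 ± 0.13 (adjusted p = 0.183) and -0.23 ± 0.13 (adjusted p = 0.637). The other probe set of Spred2 was at 7.12 and 6.996, then 7.16 and 7.10, in the no-titled arm, and at 7.33 and 7.25, then 7.28 and 6.96, in the plus-titled arm, so its untreated and treated groups overlapped in both.

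**Figure D2:**
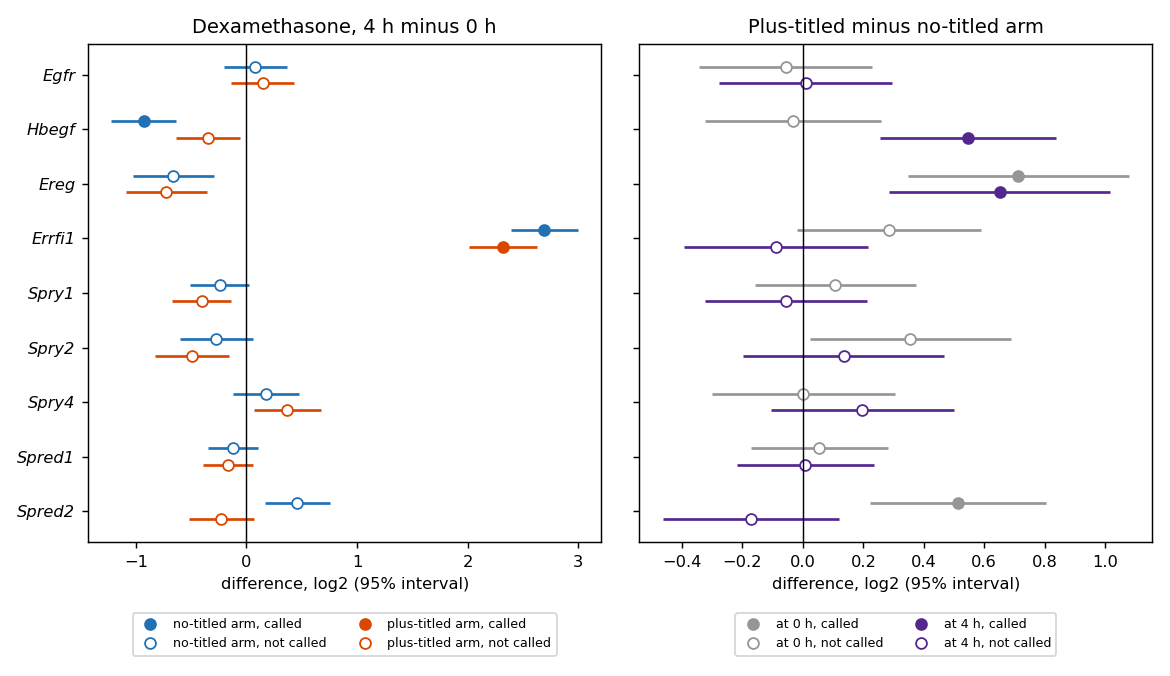
Difference (log2) of each of the 9 genes with limma's 95% interval; left, 4 h minus 0 h of dexamethasone in each arm, right, plus-titled minus no-titled arm at each time, with filled points called at an adjusted p under 0.05. Errfi1 is called in both arms at 2.69 and 2.32, Hbegf in the no-titled arm at -0.93, and Ereg between the arms at 0.71 and 0.65.

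The average of the 2 responses was tested as well, a contrast chosen after the data were seen. It called Errfi1 (2.51), Hbegf (-0.64 ± 0.09, adjusted p = 0.00321) and Ereg (-0.695 ± 0.117, adjusted p = 0.00786), that is 1 member higher and 2 lower of 9, where 1.73% of all genes were higher and 1.23% lower (2.96% in all). These 3 calls held in each of the 8 fits without 1 array, with adjusted p up to 0.0212 for Hbegf and 0.0498 for Ereg. Spry1 at -0.32 (adjusted p = 0.0852) and Spry2 at -0.38 (adjusted p = 0.105) did not pass, and with trend and robust variance both did (adjusted p = 0.0426 and 0.0493). Spry1 passed as well without the dimmest 25% of genes (adjusted p = 0.0485).

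The arms were then compared at each time. Ereg was higher in the plus-titled arm at 0 h and at 4 h, Spred2 was higher at 0 h, and Hbegf was higher at 4 h. At 0 h 2 of 9 members were higher and 0 lower, where 6.20% of all genes were higher and 3.18% lower (9.38% called in all). At 4 h 2 were again higher and 0 lower, where 5.29% of all genes were higher and 4.32% lower (9.61% in all). The members' medians were 0.11 at 0 h and 0.0090 at 4 h, against -0.019 and -0.014 over all genes. The arms did not overlap for 4 of 9 members at 0 h and 3 of 9 at 4 h, where this held for 49.8% and 51.7% of all genes.

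Ereg was higher by 0.71 ± 0.17 at 0 h (1.64-fold, adjusted p = 0.0237) and by 0.65 ± 0.17 at 4 h (1.57-fold, adjusted p = 0.0324). Both plus-titled values lay above both no-titled values at each time. The call at 0 h was lost without either untreated no-titled array (adjusted p = 0.0974 without replicate 1 and 0.128 without replicate 2) and without replicate 1 of the untreated plus-titled group (0.56, adjusted p = 0.136), an array of the pair that stood apart. The call at 4 h was lost without replicate 1 of either treated group (0.47 each, adjusted p = 0.234 for no-titled and 0.205 for plus-titled). With only the arrays compared in the fit, the call at 4 h was lost as well (adjusted p = 0.0571). Averaged over the times, a contrast chosen after the data were seen, the difference was 0.68 ± 0.12 (adjusted p = 0.00223). This call of Ereg held in each of the 8 fits. The averaged contrast called 18.8% of all genes, 11% higher and 7.74% lower. No other member was called by it with all 8 arrays. Hbegf (0.26, adjusted p = 0.0856) passed with trend and robust variance (adjusted p = 0.0496) and without the treated plus-titled replicate 2 (0.33, adjusted p = 0.0458).

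Hbegf differed between the arms by -0.03 at 0 h (95% interval -0.33 to 0.26) and by 0.55 ± 0.13 at 4 h (1.46-fold, adjusted p = 0.0257). The call at 4 h was lost without replicate 1 (0.45, adjusted p = 0.181) or replicate 2 (0.64, adjusted p = 0.0576) of the treated no-titled group, without the treated plus-titled replicate 1 (0.40, adjusted p = 0.176), and with only the 4 arrays compared (adjusted p = 0.0513). Spred2 differed by 0.51 ± 0.13 at 0 h (1.43-fold, adjusted p = 0.0357) and by -0.17 at 4 h (adjusted p = 0.512). The call at 0 h was lost in 5 of the 8 fits, at 0.34 (adjusted p = 0.268) without replicate 2 of the untreated no-titled group, at 0.45 (0.127) and 0.58 (0.07) without replicates 2 and 1 of the untreated plus-titled group, and at 0.51 (0.0525) without either treated no-titled array. It was lost as well with the mean of its 2 probe sets (0.37, adjusted p = 0.0927). The same held with only the arrays compared (adjusted p = 0.0672) and with cyclic loess scaling (0.44, adjusted p = 0.0677). Errfi1 (0.28, adjusted p = 0.257) and Spry2 (0.36, adjusted p = 0.187) did not pass at 0 h, and the untreated plus-titled replicate 1 had the highest untreated signal of both.

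**Figure D3:**
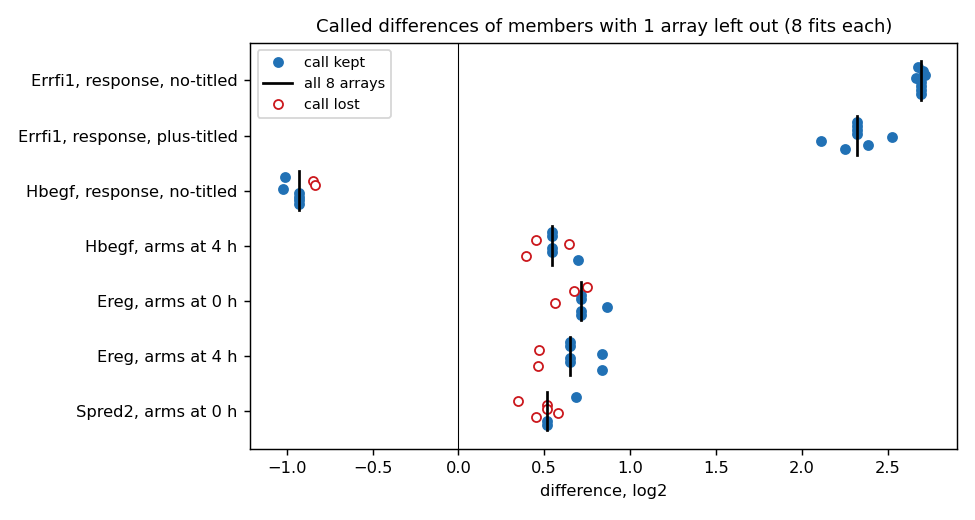
The 7 called differences of members (log2) in the fits without 1 array, 8 for each; the black line is the value with all 8 arrays, filled points kept an adjusted p under 0.05 and open points did not. Both Errfi1 responses kept the call in all 8 fits, and Spred2 between the arms at 0 h lost it in 5.

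Whether the hormone response differed between the arms was tested by the difference of the responses, plus-titled minus no-titled. limma called 0 of 9 members, where 0.00502% of all genes were called, and 2 of 9 had an unadjusted p under 0.05, where 5.11% of all genes did. These were Spred2 at -0.69 ± 0.19 (unadjusted p = 0.0038, adjusted p = 0.66) and Hbegf at 0.58 ± 0.19 (unadjusted p = 0.0104, adjusted p = 0.802). The fall of Hbegf among no-titled arrays and the missed threshold among plus-titled ones are thus not shown to differ. For Errfi1 the difference was -0.37 (95% interval -0.80 to 0.06, adjusted p = 0.991) and for Ereg it was -0.06 (-0.58 to 0.46). Egfr was at 0.07 (-0.34 to 0.47).

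The rest of the pathway was described with lists of other ErbB receptors, other ligands, sheddases, and other genes of receptor feedback and turnover. Further lists held adaptors with the Ras-ERK cascade, and genes that ERK signaling is known to induce. The lists were chosen with earlier results of these data known. Their counts beside the shares over all genes are therefore a description and not a test. Among ERK output genes, dexamethasone lowered 3 of 14 in each arm and raised 0, with medians of -0.11 and -0.16, where 0.401% (no-titled) and 0.281% (plus-titled) of all genes were lowered. These were Phlda1, Plaur and Epha2 in both arms, although other known ERK targets such as Dusp6 (0.48 and 0.26, adjusted p = 0.144 and 0.552) and Egr1 (-0.05 and -0.15, adjusted p = 0.98 and 0.791) did not pass. Phlda1, a pleckstrin homology domain gene, was at 7.72 and 7.57 at 0 h and 6.14 and 6.18 at 4 h in the no-titled arm, and at 7.33 and 7.16, then 6.22 and 5.91, in the plus-titled arm. It fell by 1.49 and by 1.18. Plaur, the urokinase receptor gene, fell by 1.20 and by 0.82, and Epha2, an Eph receptor gene, fell by 1.05 and by 0.84. Without 1 array, the calls of Phlda1 in both arms and of Plaur in the no-titled arm held in all 8 fits. That of Epha2 was lost in 2 (no-titled, adjusted p up to 0.0707) and 3 fits (plus-titled, up to 0.268), and that of Plaur in the plus-titled arm in 2 (up to 0.158).

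Among 13 other feedback and turnover genes 2 rose in the no-titled arm, against 1 in the plus-titled one, with 0 lower. Over all genes 1.03% and 0.823% rose, and 0.401% and 0.281% fell. The list's medians were -0.11 and -0.09. Cblb, which encodes a ubiquitin ligase that marks activated receptors for degradation, was at 6.17 and 6.38 at 0 h and 7.43 and 7.32 at 4 h in the no-titled arm. In the plus-titled arm it was at 6.38 and 6.47, then 7.40 and 7.40. The rise was 1.09 ± 0.11 (2.14-fold, adjusted p = 0.000478) and 0.97 ± 0.11 (1.96-fold, adjusted p = 0.0016), and it was called in all 8 fits in each arm. Its relative Cbl was at -0.10 and -0.12 and did not pass. The other was Ptprj, a receptor phosphatase gene, at 0.53 in the no-titled arm (adjusted p = 0.0498), and no fit without 1 array called it (0.47 to 0.59). In the plus-titled arm Ptprj was at -0.07, and the difference of its responses did not pass (-0.59, adjusted p = 0.645).

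Of 8 other ligand genes 1 fell in the no-titled arm, where 0.401% of all genes fell. None passed with limma in the plus-titled arm, where 0.281% of all genes fell. In that arm 1 of the 8 had an unadjusted p under 0.05, as 9.98% of all genes did. The list's medians were -0.04 and -0.0083. The 1 with an unadjusted p under 0.05 was Nrg1, the neuregulin 1 gene, at 7.004 and 6.79 at 0 h and 6.26 and 6.41 at 4 h. Its difference was -0.56 (95% interval -0.83 to -0.29, adjusted p = 0.0675), beside -0.02 in the no-titled arm. The difference of these responses did not pass (-0.54, adjusted p = 0.802). The gene that fell was Btc, the betacellulin gene, at 5.80 and 6.003 at 0 h and 5.21 and 5.28 at 4 h in the no-titled arm, and at 5.71 and 5.80, then 5.65 and 5.74, in the plus-titled arm. The response was -0.66 ± 0.11 (adjusted p = 0.0146) in the former and -0.06 (adjusted p = 0.92) in the latter, and the difference of the responses did not pass (0.60, adjusted p = 0.645). At 4 h Btc was higher in the plus-titled arm by 0.46 (adjusted p = 0.0297). Leaving out 1 array ended the first call in 3 fits (adjusted p up to 0.19) and the last in 4 (up to 0.172). Of 15 adaptor and cascade genes Gab2 alone was called, in the plus-titled arm (0.52, adjusted p = 0.0498), and no fit without 1 array called it (adjusted p up to 0.356). In the no-titled arm Gab2 was at 0.10, and the difference of its responses did not pass (0.42, adjusted p = 0.902). Over all genes 1.43% (no-titled) and 1.1% (plus-titled) were called. None of 7 sheddase genes and none of 3 other receptor genes was called by limma in either response. At an unadjusted p under 0.05 there were 1 and 0 sheddase genes (no-titled, plus-titled) and 0 receptor genes in both, where 9.1% and 9.98% of all genes had one.

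Between the arms, some sheddase and adaptor genes were called higher in the plus-titled arm and none lower. Over all genes 6.2% were called higher and 3.18% lower at 0 h, and 5.29% and 4.32% at 4 h, with medians of -0.019 and -0.014. Of 7 sheddase and trafficking genes 4 were higher and 0 lower at 0 h and again at 4 h, with medians of 0.40 and 0.38, and the other 3 did not pass at either time. Adam9, a metalloprotease gene, was at 9.23 and 9.28 in the no-titled and 10.04 and 10.05 in the plus-titled arm at 0 h, higher by 0.79 ± 0.10 (adjusted p = 0.0014), and higher by 0.68 at 4 h (adjusted p = 0.00278). Adam17, which encodes the main protease that sheds HB-EGF, amphiregulin and epiregulin, was at 8.42 and 8.38 against 9.03 and 8.87 at 0 h. It was higher by 0.55 ± 0.11 (adjusted p = 0.01) at 0 h and by 0.50 at 4 h (adjusted p = 0.015). Rhbdf2, which encodes the iRhom protein that escorts ADAM17 to the surface, was higher by 0.54 and 0.57, and Adam10 by 0.40 and 0.38. The Adam9 calls held in all 8 fits at both times. At 0 h and 4 h, the calls were lost in 2 and 4 fits for Adam17 (adjusted p up to 0.0964), in 4 and 3 for Rhbdf2 (up to 0.202), and in 8 and 6 for Adam10 (up to 0.255).

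Of 15 adaptor and cascade genes 5 were higher at 0 h and 3 at 4 h, 0 were lower, and 10 and 12 did not pass, with medians of 0.17 and 0.21. Gab1, which encodes a docking protein of receptor signaling, was higher by 0.69 and 0.81, and Braf, the Raf kinase gene, by 0.78 and 0.75. Gab2, a relative of Gab1, was higher by 0.43 and 0.85. Sos1, a Ras exchange factor gene, was higher by 0.64 at 0 h, and Shc1, an adaptor gene, by 0.44. Called in all 8 fits were Gab1 at both times, Gab2 at 4 h and Braf at 0 h. Lost were Braf at 4 h in 1 fit (without replicate 1 of the treated no-titled group, 0.68, adjusted p = 0.0563), Sos1 in 2 (up to 0.144), Gab2 at 0 h in 4 (up to 0.16) and Shc1 in 8 (up to 0.299). Of the 20 genes of this list, 5 were not analysed here.

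Of 14 ERK output genes 1 was higher and 3 lower at 0 h, and 2 were higher and 1 lower at 4 h, where 9.38% and 9.61% of all genes were called in either direction. The list's medians were -0.0029 and -0.10. Fosl1, which encodes the AP-1 subunit FRA1, was lower by -1.06 at 0 h (adjusted p = 0.00274) and -0.76 at 4 h (adjusted p = 0.0129). Epha2 was lower at 0 h by -0.73 and Plaur by -0.71. The Ets factor gene Etv5 was higher by 0.70 at 0 h, its relative Etv1 by 0.94 at 4 h, and Ier3, an immediate-early gene, by 0.43 at 4 h. Only Fosl1 at 0 h was called in all 8 fits, and the others were lost in 2 to 6. Of the other feedback and turnover genes 3 of 13 were higher at 0 h, namely Ptprj (0.74, called in all 8 fits), Socs4 (0.50, lost in 6) and Lrig2 (0.44, lost in 4). Lrig2, a leucine-rich repeat gene of the family that acts on ErbB receptors, was the 1 called at 4 h (0.68, adjusted p = 0.00471; 0.57 and adjusted p = 0.0569 without replicate 1 of the treated no-titled group). Erbb3, the receptor gene that pairs with Erbb2, was higher at 0 h by 0.51 (adjusted p = 0.0182, lost in 4 fits), the 1 called of 3 other receptors.

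**Figure D4:**
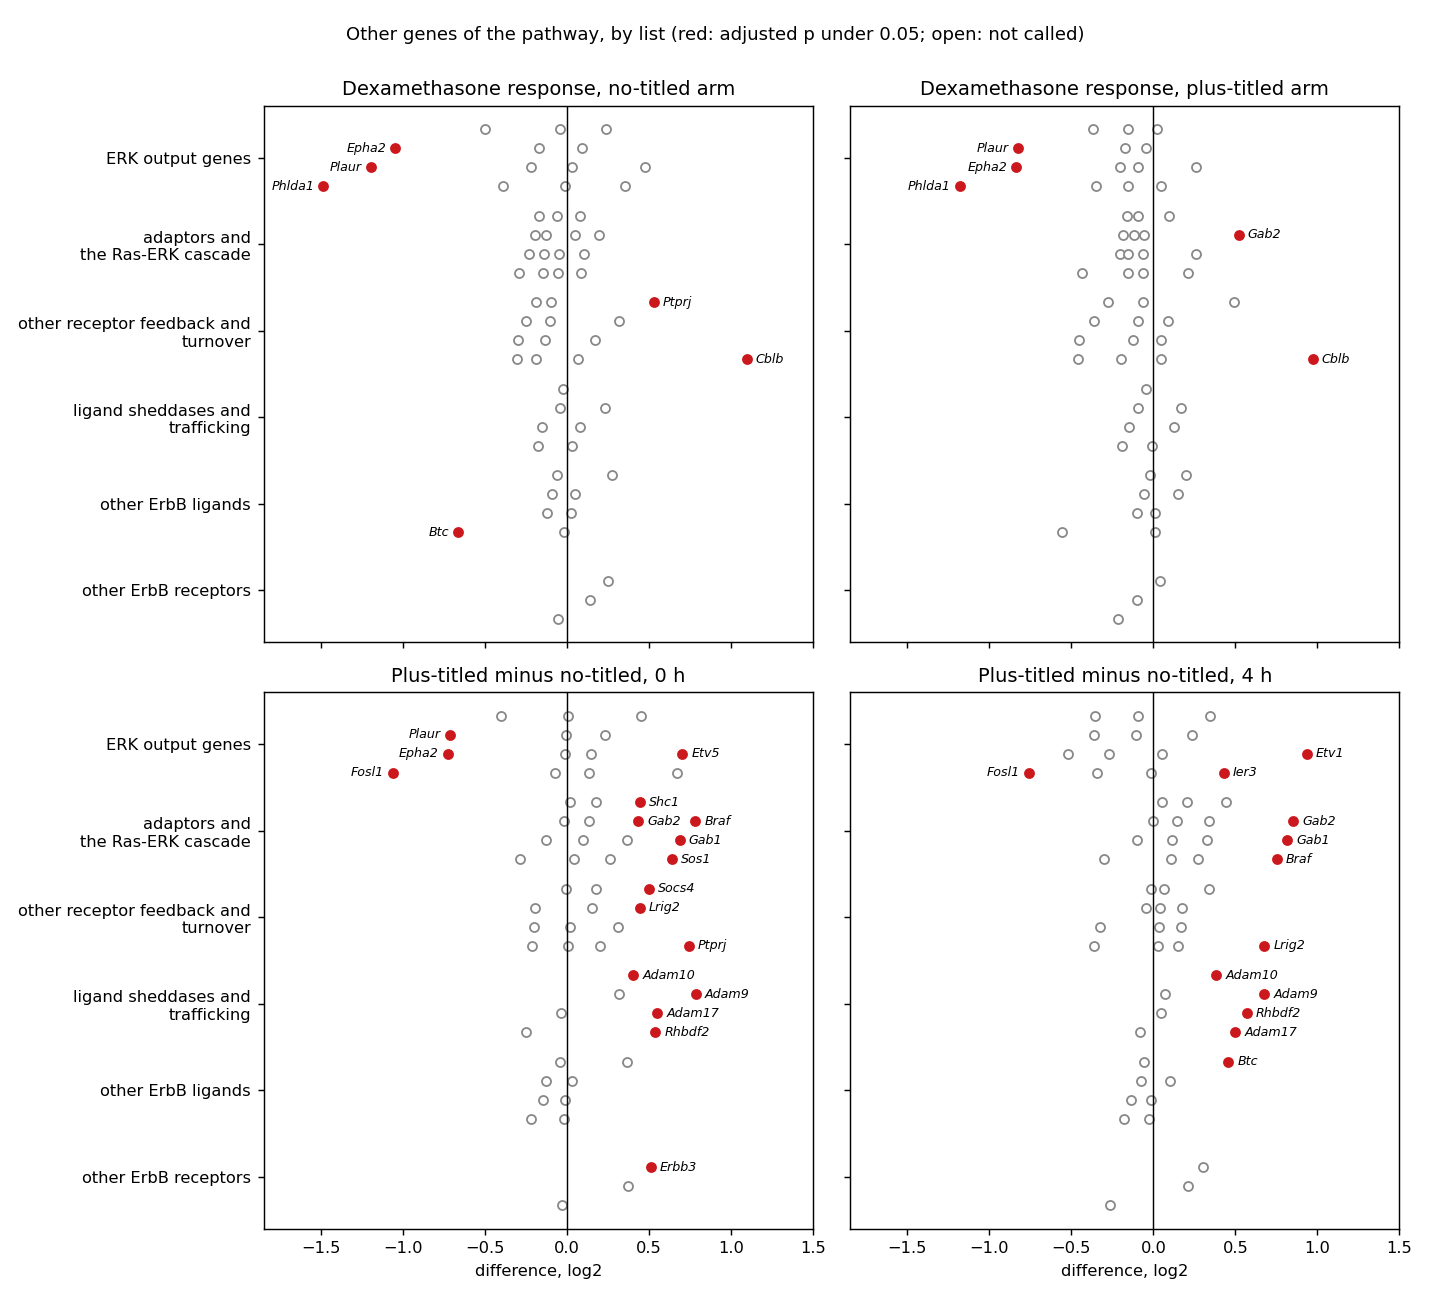
Differences (log2) of the other pathway genes by list, for the hormone response in each arm (top) and for plus-titled minus no-titled at each time (bottom); each point is 1 gene, red and named where called and open where not. Phlda1, Plaur and Epha2 lie lowest in both responses, at -1.49 to -0.82, and Cblb highest, at 1.09 and 0.97.

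Genes whose signal ran most like that of the called members over the 8 arrays are given as a description, since the arrays are shared and 4 group means shape the likeness. For Errfi1 these were Tmem106b, Fam117b and E2f6 (Pearson's r across the 8 arrays of 0.996, 0.994 and 0.993). For Hbegf they were Kif3c, Ttc14 and Ipo13 (0.961, 0.957 and 0.954). For Ereg they were Gpr137b, Zfp414 and Cnst (0.983, 0.983 and 0.982). For Spred2 they were Supt5, Pjvk and Slc11a2 (0.969, 0.938 and 0.936). Of these, Fam117b had the largest responses, at 1.54 and 1.28.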

How the data were processed

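RNA of the 8 samples was measured on Affymetrix mouse gene arrays. The deposited table holds log2 values made by the authors for 28888 probe sets. The submitters' processing notes name RMA in Affymetrix Expression Console, and give no version. RMA hides changes shared by most genes and compresses folds of dim genes. Probe sets were named through the platform annotation, and 21698 took the symbol that a RefSeq table (GRCm38.p6) gives for their gene number. Promoter windows came from RefSeq on the same build. Exactly 1 symbol was carried by 21789 probe sets, several by 1621 and none in the table used by 5478.

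limma 3.58.1 in R 4.3.3 (lmFit, eBayes) estimated the 4 group means from all 8 arrays, and 2-sided p-values were adjusted over 19938 genes with no signal filter. Residual degrees of freedom were 4, to which the prior added 6.64. All adjusted p-values are limma's. The fitting code was run on simulated data with planted changes and independent noise, which tests the code and not the calls above. As alternatives, the variance model, the arrays in the fit, a replicate block, a dim-gene filter, the scaling, the probe set rule and a 2-fold minimum were varied, and each array was left out.

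The members and lists were chosen with earlier results of these data known. Named by rule are all members, the called genes of each list (at most 4 per list and contrast, by size), the 3 genes most like each called member, and Fkbp5, Tsc22d3 and Fos. Gab2 at 0 h, Dusp6, Egr1, Cbl, Nrg1 and the marker genes were named after their values were seen.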

Additional observations from a re-analysis of the deposited data

Results flagged for a closer look

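The responses of Spred2 ran in opposite directions on all arrays. Its treated values (7.70 and 7.64) lay above the untreated ones (7.38 and 7.04) in the no-titled arm, and below them in the plus-titled arm (7.57 and 7.42 against 7.66 and 7.79). The difference of the responses was -0.69 ± 0.19 (log2, SE) and did not pass with limma over all genes (adjusted p = 0.66). Its other probe set overlapped between 0 h and 4 h in both arms.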

How the results depend on the processing

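Both responses of Errfi1 kept their call and direction in each alternative. Of the members, the count called with all 8 arrays was 2 and 1 for the responses (no-titled and plus-titled), 2 and 2 between the arms (0 h and 4 h) and 0 for the difference of the responses. With 1 array left out these ranged from 1 to 2, stayed at 1, ranged from 0 to 2 and from 0 to 2, and stayed at 0. Trend and robust variance added Ereg to the calls of the no-titled response (adjusted p = 0.0454) and gave 2 in the plus-titled response. Leaving out the dimmest genes gave 2 in the plus-titled response as well. Between the arms at 0 h, only the arrays compared, cyclic loess and the mean of probe sets each gave 1; only the arrays compared gave 0 at 4 h. With a 2-fold minimum, 1 was called in the no-titled response and 0 between the arms at either time.

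The replicate numbers of the titles mark no stated pairing, and same-numbered arrays deviated together at correlations of -0.02 to 0.13. With the replicate number as a block the counts were 2, 1, 2, 2 and 0. Of the averaged responses, Spry2 then passed (-0.38, adjusted p = 0.034), which made 4 members called in place of 3. Signs turned only where nothing was called. Under cyclic loess this held for Egfr between the arms at 0 h (0.0098) and averaged over the times (0.027), for Spred1 at 0 h (-0.021), at 4 h (-0.017), averaged (-0.019) and in the difference of the responses (0.0043), and for Spry1 averaged (-0.011). Without 1 array, values crossed 0 for Egfr in the no-titled response (-0.077 to 0.24), between the arms at 0 h (-0.14 to 0.028), at 4 h (-0.15 to 0.17) and averaged (-0.10 to 0.054), and in the difference of the responses (-0.090 to 0.22). Between the arms at 0 h this held for Hbegf (-0.11 to 0.048) and Spry4 (-0.082 to 0.086), and at 4 h for Spry1 (-0.16 to 0.051), Spry2 (-0.044 to 0.31) and Spred1 (-0.0079 to 0.023). It also held for Ereg in the difference of the responses (-0.25 to 0.12), and for Errfi1 (-0.0054 to 0.20) and Spry1 (-0.028 to 0.079) averaged over the times. Only 2 arrays a group, and no detection calls, limit what can be said of the dim Egfr and Spry4 probe sets.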
